A study of Mus musculus with 2 samples.

Results

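The Genomic class gathers transcript models that, for the most part, lie on a known gene without matching the splice structure of any of its known transcripts. It was examined in long-read RNA sequencing of heart from female B6CASTF1/J mice aged 18 to 20 months, a hybrid strain from The Jackson Laboratory. No treatment is named in the labels, and the samples form 1 group of 2 libraries, replicate 1 and replicate 2, each made from 2 µg of RNA. Both libraries carry the same donor entry but different sample entries, so their spread may be partly technical. Members were all mouse models whose deposited class is Genomic, 7685 of 58133 models in replicate 1 and 8409 of 63023 in replicate 2. They held 56522 of 630211 mouse reads in replicate 1 (8.97%) and 52588 of 664319 in replicate 2 (7.92%), on average 8.44% ± 0.744 (SD, n = 2). Tests set replicate 1 against replicate 2 and their error is counting error only, so they compare 2 libraries and no condition.

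A messenger RNA is cleaved and given its poly(A) tail a short way after a signal, most often AATAAA or ATTAAA in the DNA letters, in the last exon. Many genes have several such sites and hence several 3′ ends. A read that covers only part of a last exon crosses no splice junction, and one that covers an intron can come from unspliced RNA, from a transcript unknown to the annotation or from priming on an A-rich stretch inside a transcript. The annotation program named in the deposited models, TALON, gives each new model a class. One of those classes, the incomplete splice match (ISM), is a model that fits a part of a known transcript, and ISM models of a single exon are set beside the Genomic ones below.

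The last 30 bases before the 3′ end of the leading model are shown for 8 of the genes with the most Genomic reads, because most of the Genomic reads are told apart by where that end lies. Capitals mark AATAAA or ATTAAA, and a line without capitals holds neither. All are in the annotated last exon, on mm10, 5′ to 3′ along the RNA, read from the GENCODE M21 transcript sequences. The first 5 models end at a known 3′ end, and those of Coq3, Rtraf and Polr2l end inside the last exon. Where the libraries differ in the end, the model of replicate 1 is shown for Coq3 and that of replicate 2 for Polr2l.
Mb, chr15:77015487-77015516, minus strand: gtctcAATAAAatatcctgcgagtcctcaa
Mrpl30, chr1:37898309-37898338, plus strand: ttctcATTAAAgtgtatgttcatccagtca
Acot13, chr13:24817948-24817977, minus strand: ttctgaAATAAAttatcaaaaccagaagta
Pln, chr10:53344242-53344271, plus strand: caacatggctcataaatttctttcctaaat
Esrra, chr19:6910977-6911006, minus strand: agaaaaaaaatatactatggagctcaagta
Coq3, chr4:21910728-21910757, plus strand: gaacaaaaggtcAATAAAaatatctaaatc
Rtraf, chr14:19811787-19811816, minus strand: ggagacaatatagatatttagaccacaaga
Polr2l, chr7:141473100-141473129, minus strand: aacaggtctaacttccaaggtgctccatgt
In the first 3 sequences the signal ends 19, 19 and 18 bases before the end of the model.

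Most Genomic reads lay in last exons and only a minority over introns. Of the reads in annotated genes, 87.3% in replicate 1 and 85.6% in replicate 2 belonged to models inside a last exon, where a model was placed by its overlap with the known exons of its gene and up to 10 bases over an exon edge were tolerated. Models inside introns held 7.20% and 7.77% of the reads, those over an exon and an intron 2.48% and 3.05%, and those that ran past the gene 2.50% and 2.72%. Placed against known transcripts with reads only, introns held a mean of 3.05% (7.49% against all) and reads past the gene 6.29% (2.61% against all). Genes with no such transcript could not be placed and were left out there, so the set of genes differs as well. Counted by model instead of by read, introns held 21.1% of models in replicate 1 and 21.4% in replicate 2. Intron models with a single read made up 76.9% of intron models in replicate 1 and 77.5% in replicate 2. Among single-exon ISM reads the intron share was 0.0442% in replicate 1 and 0.0343% in replicate 2. A value near 0 follows from the definition of that class, whose models fit a part of a known transcript.

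**Figure D1:**
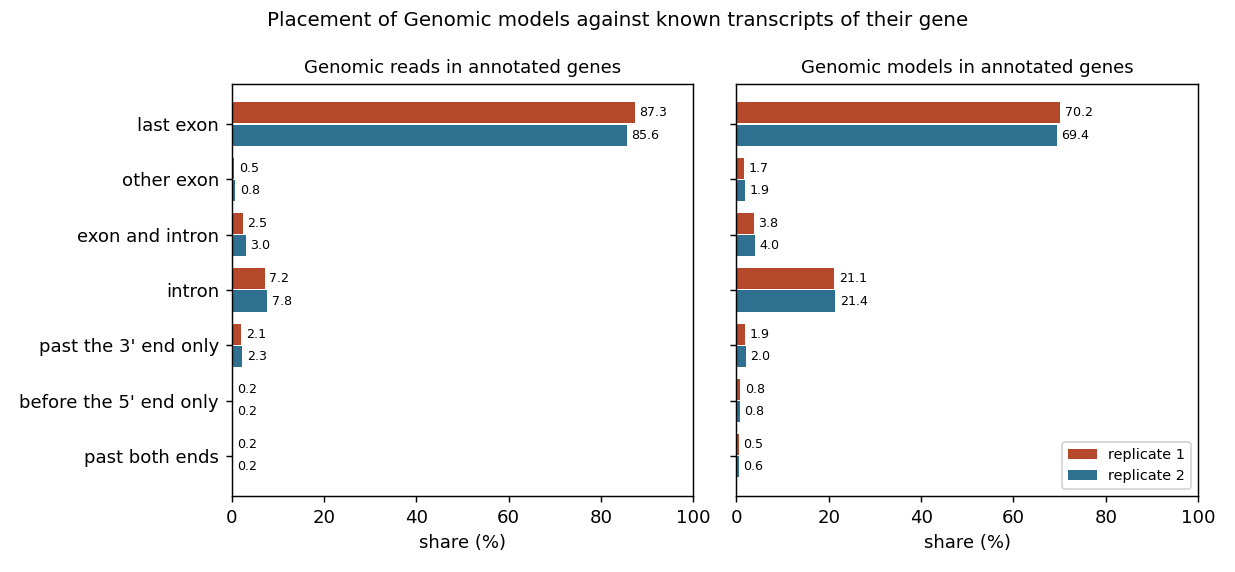
Share of Genomic reads (left) and of Genomic models (right) in annotated genes, in percent, for each placement against the known transcripts of the gene, with 1 bar for replicate 1 and 1 for replicate 2. Last exons hold 87.3% and 85.6% of reads but 70.2% and 69.4% of models, and introns hold 7.20% and 7.77% of reads but 21.1% and 21.4% of models.

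The 3′ ends followed the same pattern. Models that end within 100 bases of a known 3′ end held 79.8% of reads in replicate 1 and 77.0% in replicate 2 (78.4% ± 2.03, SD, n = 2), against 95.7% and 96.1% for single-exon ISM reads. Ends elsewhere in a last exon took 9.56% and 11.5% of Genomic reads, and ends in introns took 7.45% and 7.95%. Nearly all of the ends at known sites were exact, because 79.0% of reads in replicate 1 and 76.2% in replicate 2 had a model end on the very base of a known 3′ end. Both ends of the model fell on an annotated exon edge for 60.1% of reads in replicate 1 and 54.0% in replicate 2. Some models were as short as 1 base, 435 of them with 5326 reads in replicate 1 and 495 with 4857 reads in replicate 2. The 3′ end of the model was a known exon edge for 80.8% of reads in replicate 1 and 77.5% in replicate 2. For the 5′ end these were 68.2% and 64.1%. Neither the ends nor the length of a deposited model need therefore be those of its reads, and lengths of models are not used as lengths of RNA here. Whether model ends were set to annotated positions was not tested.

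The poly(A) signal was searched as AATAAA or ATTAAA on the RNA strand in the last 30 bases before each distinct end. It was present at 73.2% of 4391 ends at known 3′ ends in replicate 1 and at 73.6% of 4775 in replicate 2. Ends inside last exons held it at 45.0% of 1051 and 43.9% of 1115. For comparison, 29.9% of all 43652 known 3′ ends of the same genes had it, and 2.41% of 588862 windows of the same length laid side by side along their last exons away from known ends. The reverse complements TTTATT and TTTAAT occurred at 8.45% and 9.03% of the ends at known sites, and at 3.33% of the windows. The share at ends inside last exons thus lay between that of the windows and that of the ends at known sites. The next 20 bases after the ends inside last exons averaged 32.9% A in replicate 1 and 33.2% in replicate 2, against 26.2% in the windows. At least 60% A was found after 11.8% of these ends in replicate 1 and 12.8% in replicate 2, against 1.22% of windows. By reads, nearly all model ends at known sites were annotated bases, so their letters are those of the annotation. A match is a description of the letters and not evidence of a site in use, and priming on A-rich stretches was not tested.

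**Figure D2:**
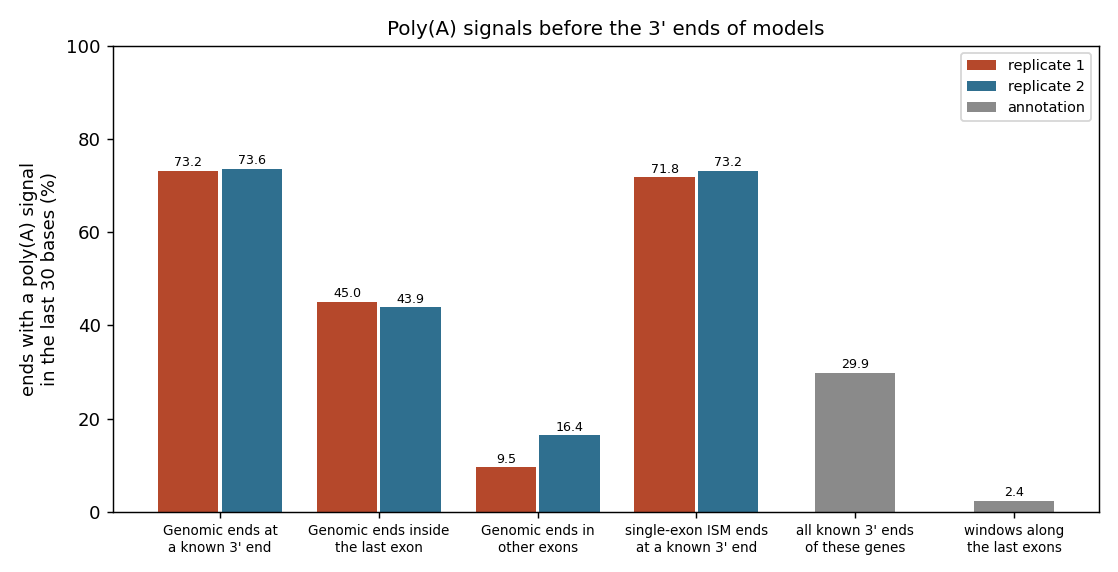
Percentage of distinct model 3′ ends with AATAAA or ATTAAA in their last 30 bases, by kind of end, for replicate 1 and replicate 2, with 2 sets from the annotation in grey. The signal precedes 73.2% and 73.6% of Genomic ends at known 3′ ends, 45.0% and 43.9% of those inside last exons, and 2.41% of windows along last exons.

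A small number of genes held a large part of the Genomic reads. Whether this exceeds the concentration of all reads in leading genes was not tested. Of 8531 annotated genes with any Genomic read, 4054 had one in both libraries. The 25 genes with the most held 38.6% of Genomic reads in replicate 1 and 26.2% in replicate 2. Pln alone held 15.4% of them in replicate 1 and 0% in replicate 2. Protein-coding genes in all held 95.9% and 95.6%. In 23 of the 24 leading genes other than Pln, the Genomic class made up at least 60% of all reads of the gene in both libraries. None of the 24 differed in that share between the libraries by Fisher's exact test (largest difference 7.20 percentage points), where 3.76% of all 4765 genes tested did, so that a count of 0 among 24 is near the background. The median share was 3.57% over the 4765 genes that reached 10 reads in both libraries, and 320 of these genes (6.72%) had at least 50% in both. Since the leading genes were picked by their Genomic reads, a higher share among them follows in part from the choice.

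**Figure D3:**
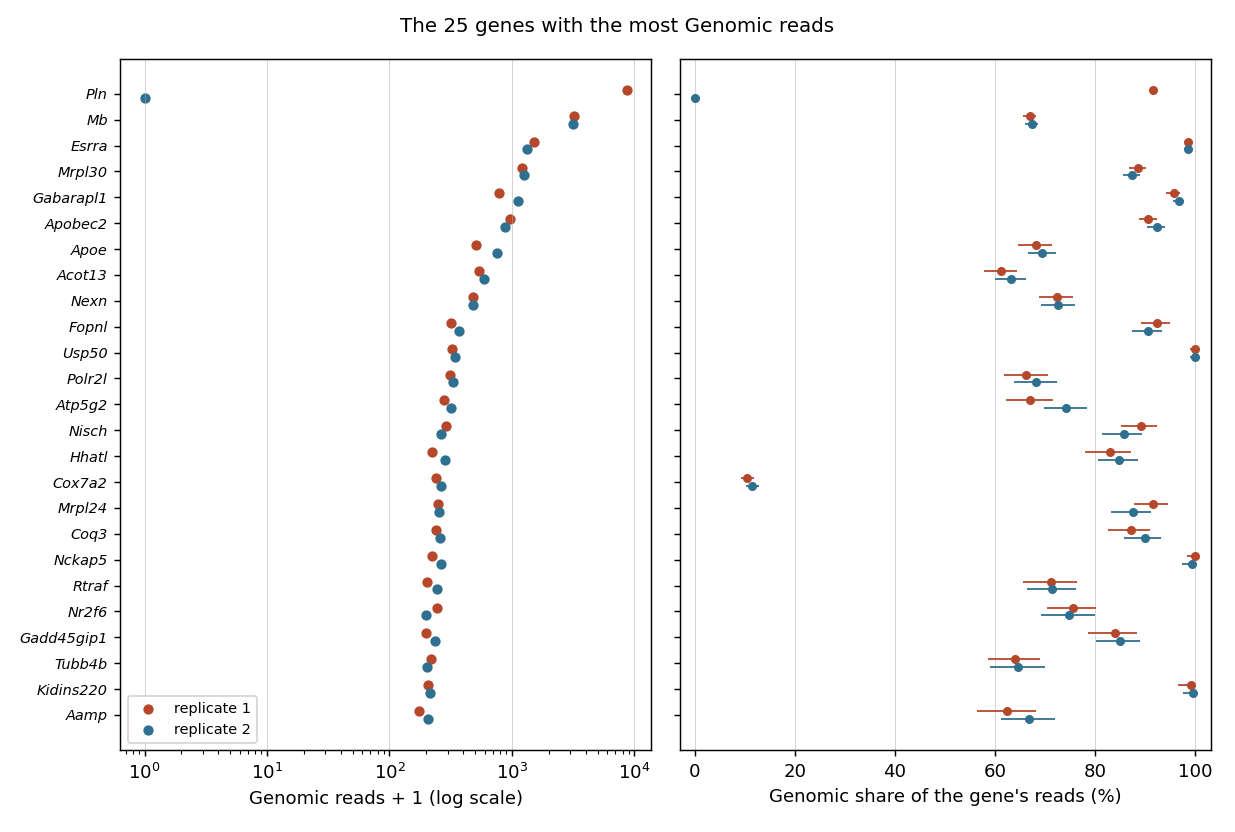
Genomic reads plus 1 on a log axis (left) and Genomic share of all reads of the gene in percent with exact 95% intervals (right) for the 25 genes with the most Genomic reads, for replicate 1 and replicate 2. The points of the 2 libraries lie close together except in Pln, which has 8696 Genomic reads in replicate 1 and 0 in replicate 2.

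Pln encodes phospholamban, the small protein that restrains the calcium pump of the sarcoplasmic reticulum. It had 8696 Genomic reads in replicate 1 and 0 in replicate 2, which is at least 3189-fold higher in replicate 1 when 0 is set to a floor of 3 reads. All reads of the gene numbered 9499 and 9718, and 793 and 862 of them were assigned to known transcripts. A count of 0 of 9718 reads allows a Genomic share of up to 0.0309% by counting error alone. Instead replicate 2 had 8846 single-exon ISM reads, a class at 0 in replicate 1. The sums of the classes were thus 8696 and 8846 reads, a ratio of 1.08 relative to library size (1.05 to 1.11, exact binomial test, adjusted p = 2.41e-05). On such sums 2.03% of all genes were called. The sum was tested with TMM-scaled library sizes only, so whether the call holds with other sizes was not tested. All reads of Pln had a ratio of 1.08 as well. The leading Genomic model of replicate 1 (8276 reads) spans chr10:53343515-53344271 and ends at a known 3′ end, and the ISM model of replicate 2 spans chr10:53343757-53345987 and ends 1716 bases further on, at another. A second Genomic model of replicate 1, with 420 reads, reaches that farther end too.

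Mb, which encodes the oxygen store myoglobin, came next with 3187 Genomic reads in replicate 1 and 3134 in replicate 2. These were 66.9% and 67.3% of its reads, in 1 leading model of 3183 and 3134 reads that ends at chr15:77015487, the 3′ end of the gene. Relative to the scaled library sizes the count was 1.12-fold higher in replicate 1 (95% interval 1.06 to 1.18, exact binomial test, adjusted p = 0.000113), against 14.5% of all genes called. The call was lost with DESeq2 size factors (adjusted p = 0.153 in the same exact test), and with sizes from Genomic reads only it was lost and the direction turned (0.139). All reads of Mb differed about as much, with 4765 in replicate 1 and 4657 in replicate 2, a ratio of 1.13.

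Esrra, the nuclear receptor ERRα that drives genes of oxidative metabolism, had 1512 Genomic reads in replicate 1 and 1337 in replicate 2. They made up 98.5% of its reads in each library and all fell in a single model of 73 bases at chr19:6910977-6911049, at the 3′ end of its last exon. Only 17 reads in each library belonged to known Esrra transcripts. That stretch also lies in an exon of Trmt112 on the opposite strand, and no source at hand says whether the counting used strand, so reads of the neighbours cannot be told apart. Over all genes, models with an opposite-strand exon beneath them held 35.3% of last-exon reads in replicate 1 and 19.2% in replicate 2, those of Pln and Mb included. The ratio was 1.24 (1.16 to 1.34, exact binomial test, adjusted p = 1.30e-07; 0.519 with sizes from Genomic reads only), and the share did not pass Fisher's exact test (adjusted p = 1).

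In several other genes nearly all Genomic reads fell in 1 model with the same end in both libraries. Mrpl30, a mitochondrial ribosomal protein, had 1212 and 1260 Genomic reads (88.5% and 87.3% of its reads) in a model at chr1:37898165-37898338. Apobec2, a muscle member of the APOBEC family, had 963 and 884 (90.6% and 92.3%), and Acot13, an acyl-CoA thioesterase, had 540 and 593 (61.1% and 63.2%). The models of both genes were 1 base long, on the base of a known 3′ end in each library. Nexn, which encodes the Z-disc protein nexilin, had 479 and 483 Genomic reads and 1 and 0 reads of known transcripts. Its leading model was 1 base long in replicate 1 and 585 bases long in replicate 2, with the same 3′ end. Of these 4 genes only Apobec2 passed the test (ratio 1.20, exact binomial test, adjusted p = 0.00115), and its call was lost with DESeq2 size factors (0.0517) and with sizes from Genomic reads only (0.985). The remaining ones ending at a known 3′ end in both libraries were mostly alike in count. Fopnl had 316 and 366 Genomic reads, Atp5g2, a c subunit of ATP synthase, 278 and 319, Nisch 287 and 263, Hhatl 223 and 285, Tubb4b, a β-tubulin, 218 and 201, and Aamp 173 and 204. None of these 6 passed the exact test (adjusted p from 0.180 to 0.942). Over all 1452 genes tested 14.5% were called, and counts among 4 or 6 genes are too small to be set apart from that share. Usp50, of the ubiquitin-specific protease family, had 322 and 342 reads, every one of them Genomic, in a model that overlaps the pseudogene Gm10774 on the same strand, so the gene of origin is uncertain.

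Gabarapl1 and Apoe were higher in replicate 2. Gabarapl1, an autophagosome protein of the Atg8 family, had 779 Genomic reads in replicate 1 and 1116 in replicate 2 (ratio 0.768, 0.700 to 0.842, exact binomial test, adjusted p = 2.68e-07). Apoe, the lipid-carrying apolipoprotein E, had 505 and 757 (ratio 0.734, 0.654 to 0.823, adjusted p = 1.13e-06 in the same exact test). All reads of Gabarapl1 numbered 814 in replicate 1 and 1154 in replicate 2, and those of Apoe 742 and 1092. Genomic shares were 95.7% and 96.7% for Gabarapl1 and 68.1% and 69.3% for Apoe, and neither passed Fisher's exact test (adjusted p = 1).

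A second set of leading genes had model ends inside the last exon, away from any known 3′ end. Polr2l, a subunit shared by the RNA polymerases, had 312 Genomic reads in replicate 1 and 327 in replicate 2. Its replicate 1 model was 1 base long, on a known exon edge, and ended 1544 bases before the nearest known end. The replicate 2 model ended 1240 bases before that known end. Rtraf, an RNA-binding protein of the tRNA ligase complex, had 203 and 245 reads in identical models that end 436 bases short. Mrpl24 (250 and 251 reads), Gadd45gip1 (197 and 236) and Coq3, a methyltransferase of coenzyme Q synthesis (238 and 256), also ended short. The distance was 346 bases in Mrpl24 and 1158 in Gadd45gip1. The leading models of Mrpl24 and Coq3 were 1 base long in both libraries. The Coq3 end was 1405 bases short in replicate 1, 12 bases after the AATAAA printed above, and 1423 bases short in replicate 2, just before it. Among the next 20 bases, 8 were A after the replicate 1 end and 13 after the replicate 2 end. Exons of Nid2 and Rrnad1 lie on the opposite strand under the models of Rtraf and Mrpl24.

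The intron models described here were taken from those found in both libraries, so a shared place follows from that choice. Counts did not always agree. A530058N18Rik, opposite Actc1, had 68 and 12 reads in such a model, of 259 and 35 reads of the gene. Over all intron models, the 10 genes with the most intron reads held 29.2% of them in replicate 1 and 23.7% in replicate 2. Nckap5 had 222 reads in replicate 1 and 262 in replicate 2 in a model of 89 and 85 bases whose 3′ end is chr1:126708474 in both. No read of a known Nckap5 transcript was listed in either library, and Genomic reads were 223 of 223 and 262 of 264 reads of the gene. Kidins220, a scaffold protein of neurotrophin signalling, had 196 and 205 reads in models that start at chr12:25021363 in both libraries. Their 3′ ends differed, at chr12:25021541 in replicate 1 and chr12:25021523 in replicate 2. Known transcripts of Kidins220 again had 0 reads in both libraries. Jarid2, an accessory protein of Polycomb repressive complex 2, had 140 and 150 reads in models that start at chr13:44869572. Their 3′ ends were chr13:44869900 in replicate 1 and chr13:44869822 in replicate 2, and known transcripts had 1 and 0 reads. The introns of Lyrm4 and Podn held 63 and 48, and 73 and 20 reads, in models that overlap exons of Tmed10-ps and Scp2 on the same strand. Genes without a single read of a known transcript held 65.4% of intron reads in replicate 1 and 69.5% in replicate 2, against 8.59% and 11.2% of last-exon reads. Of the 1599 intron models of replicate 1, 402 had a match in replicate 2 by the rule given further on, against 2060 of 5305 models in last exons.

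Some models covered a whole intron between exons. Tcap, which encodes the titin cap telethonin, had a Genomic model at chr11:98383811-98384953 that covers the gene from end to end, 195 intronic bases included. It held 126 of 1792 reads in replicate 1 (7.03%) and 224 of 3009 in replicate 2 (7.44%), and the share did not pass Fisher's exact test (adjusted p = 1) while the count differed (ratio 0.619, 0.493 to 0.773, exact binomial test, adjusted p = 0.000175). Myadml2, in a model with 53 and 35 reads that covers its intron, had 0 and 3 reads of known transcripts. Scand1 had 19 and 38 reads in a model that covers its intron, among 79 and 71 in all. Myadml2os and Cnbd2 lie on the opposite strand under the models of Myadml2 and Scand1, so reads of these neighbours cannot be told apart. Among models over an exon and an intron, those that cover a whole known intron held 54.4% of reads in replicate 1 and 63.8% in replicate 2.

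Of the models that ran past the annotated 3′ end in both libraries, the leading ones belonged to antisense genes. Gm43126 had 163 and 192 reads, all Genomic, in identical models that run 2672 bases past the gene, over an exon of Ccnd2 (cyclin D2) on the opposite strand. Gm20659 had 87 and 77 reads in models 1091 bases past the gene, over an exon of Dusp3 on the opposite strand. Reads of these pairs cannot be told apart either. Exons of a gene on the opposite strand lay under 51.3% of past-the-end reads in replicate 1 and 60.7% in replicate 2. Cox7a2, a cytochrome c oxidase subunit, was placed differently in the libraries. Its model of 240 reads in replicate 1 ran 4357 bases past the gene, while that of 264 reads in replicate 2 was 46 bases long and ended at the known end. Nr2f6, an orphan nuclear receptor, did the opposite, with 243 reads at the known end in replicate 1 and 196 reads in a model 434 bases past it in replicate 2.

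Whether the libraries agree depends on how much of the model is compared. In the same gene, 2624 models were matched (single-exon models by at least 50% reciprocal overlap, spliced ones by their introns), which is 34.7% of replicate 1 models and 31.8% of replicate 2 models, with 54.5% and 62.6% of Genomic reads. In 273 genes with at least 20 Genomic reads in each library, the leading models had the same placement in 254 and 3′ ends within 100 bases in 236 (86.4%). Their 5′ ends were within 100 bases in 182 (66.7%). These are ends of models, many on annotated positions, and need not be those of reads. Among the 24 leading genes other than Pln, the leading models had identical coordinates in 14 and the same 3′ end in 19.

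Gene by gene, Genomic reads differed between the libraries in 211 of 1452 genes with at least 10 such reads over both (14.5% called; exact two-sided binomial test, Benjamini-Hochberg adjusted p under 0.05). By direction, 97 had more in replicate 1 and 114 in replicate 2, and 281 had an unadjusted p under 0.05. The minimum of 10 was met by 1452 of the 8531 genes with a Genomic read. In 121 of the 211 genes the class changed as in Pln. These had at least 10 Genomic and single-exon ISM reads in each library, at least 90% of them Genomic in 1 library and at most 10% in the other. The Genomic side was replicate 1 in 56 genes and replicate 2 in 65. Of the 888 genes with such reads, 493 were Genomic in both, 211 ISM in both and 63 mixtures. Since they were picked by that difference, their Genomic counts are a description.

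Several of these genes had all their reads of this kind in a single class on each side. Ndrg2, a gene of the N-myc downstream regulated family, had 275 and 0 Genomic reads against 0 and 266 ISM reads, so the summed reads were 275 and 266. The ubiquitin-conjugating enzyme gene Cdc34 had 0 and 196 Genomic and 181 and 0 ISM reads. Csrp3, which encodes muscle LIM protein, had no Genomic read among 1223 in replicate 1, which allows a share of up to 0.245%, and 8.21% of 1230 in replicate 2, beside 119 and 0 ISM reads. For the caveolar protein gene Cavin2 the counts were 137 and 0 Genomic and 0 and 160 ISM reads, and for Maf1, a repressor of RNA polymerase III, 143 and 0 Genomic and 0 and 147 ISM reads. Their sums did not pass the exact binomial test (adjusted p from 0.605 to 1), although 5 of the 121 genes did. On such sums 2.03% of all 2021 genes tested were called. Outside the limits, but close to them, were Kcnk3, a background potassium channel with 0 and 200 Genomic and 206 and 27 ISM reads, and Lpl, the gene of lipoprotein lipase with 1 and 158 Genomic and 166 and 20 ISM reads.

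Among genes named for a large difference in share or count, the same exchange of classes was seen in less abundant ones. Immt, a mitochondrial inner membrane organiser, had 46 and 0 Genomic beside 0 and 74 ISM reads, and the carbohydrate-responsive factor gene Mlxipl 41 and 0 beside 0 and 35. Ece1, the endothelin-converting enzyme, had 0 and 70 Genomic beside 51 and 0 ISM reads, and no reads of known transcripts in either library. Perm1, a muscle regulator of oxidative genes, had 59 and 2 Genomic beside 0 and 41 ISM reads.

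**Figure D4:**
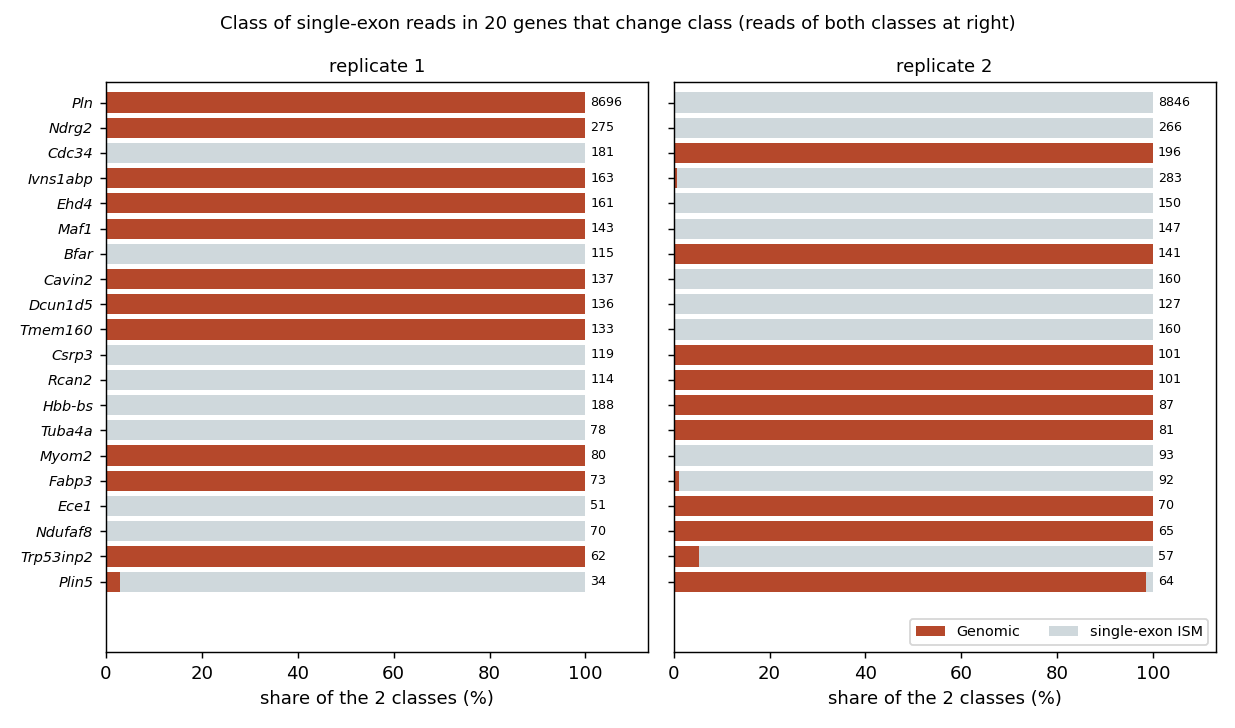
Share of Genomic and of single-exon ISM reads among the reads of both classes, in percent, in replicate 1 (left) and replicate 2 (right), for the 20 genes with the most Genomic reads among the 121 that change class. The number at the end of each bar is the sum of both classes, which is 8696 and 8846 reads in Pln and 275 and 266 in Ndrg2.

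The models on each side of a class change shared their 3′ end more often than their start. Here too, ends of models need not be those of reads. In 107 of the 121 genes the 3′ ends lay within 100 bases and in 88 they were the same base, whereas the 5′ ends were within 100 bases in 27. The ISM model was the longer in 100 genes and the Genomic model in 19, with medians of 847 and 452 bases. Over the 121 genes the Genomic reads summed to 11177 in replicate 1 and 2379 in replicate 2, or to 2481 and 2379 without Pln, and the reads of both classes to 13492 and 14077. What decides the class was not tested.

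With single-exon ISM reads added, 41 of 2021 genes differed (2.03% called), and 27 of the 211 genes were among them. Over the 1452 genes, Pearson's r of log2(reads + 1) between the libraries was 0.394 for Genomic reads and 0.856 for both classes. Without the 121 genes that change class it was 0.732 for Genomic reads (n = 1331), a rise that follows from leaving out genes picked for their difference. These are correlations across genes, which are not independent replicates. The Genomic share of a gene's reads differed in 179 of the 4765 genes (3.76% called, Fisher's exact test) and the share of both classes in 7 (0.147% called), 3 of them among the 179.

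**Figure D5:**
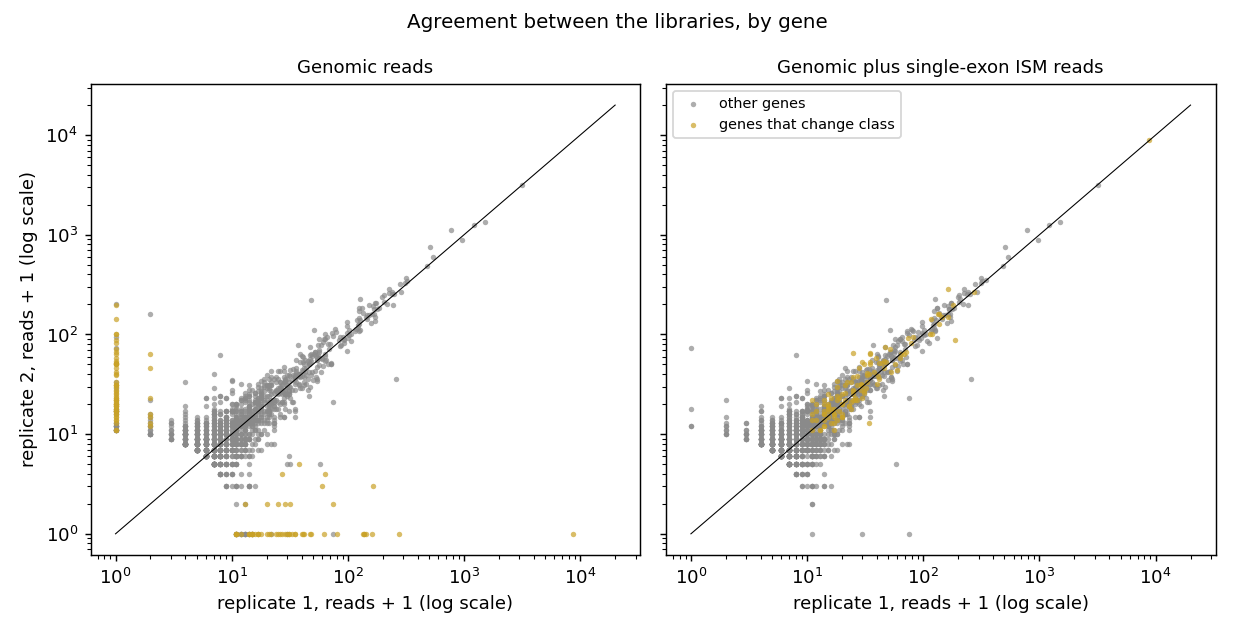
Reads plus 1 in replicate 1 (x axis) and replicate 2 (y axis) on log axes for 1452 genes with at least 10 Genomic reads over both libraries, as Genomic reads (left) and as Genomic plus single-exon ISM reads (right), with the 121 genes that change class in yellow and the line of equal reads. On the left these genes lie along the axes, and on the right near the line, r being 0.394 and 0.856.

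In 4 of the 27 genes called both with and without ISM reads, the directions of the calls were opposite. Ivns1abp, with 163 and 2 Genomic and 0 and 281 ISM reads, was one, and its reads in all were 323 and 543. Pdk4, the kinase that turns off pyruvate dehydrogenase, had 47 Genomic reads in replicate 1 and 223 in replicate 2 (ratio 0.232, 0.166 to 0.319, exact binomial test, adjusted p = 3.27e-23). All its reads numbered 125 and 531, and the Genomic share of 37.6% and 42.0% did not pass Fisher's exact test (adjusted p = 1). A530058N18Rik, with 259 and 35 reads, all Genomic, lies opposite Actc1 (cardiac α-actin), from which its reads cannot be told apart. Ddx5, an RNA helicase of splicing, had 57 and 4 Genomic reads (ratio 15.7, exact binomial test, adjusted p = 1.07e-12) but 148 and 125 reads in all and no ISM reads. Here 56 reads of replicate 1 shared a model at chr11:106781548-106781976, inside the last exon. Scp2 and Podn shared 1 stretch of chromosome 4. Podn had 73 reads in replicate 1 and 20 in replicate 2, Scp2 had 0 and 72, and their models overlap, so that the sums were 73 and 92. Podn, Scp2 and A530058N18Rik were chosen after their values were seen.

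Gene groups of the heart ranged widely in how much of their output was Genomic. In each sentence below the percentages are the Genomic share of all reads of the list, and the median is over members that reached 10 reads in both libraries, to be read beside 3.57% for all 4765 genes. Nuclear receptors and coactivators had 88.4% in replicate 1 and 82.2% in replicate 2, with 1512 of 1643 and 1337 of 1389 Genomic reads in Esrra, and a median of 29.3% over 9 members. Ion channels and gap junctions had 64 of 640 and 94 of 682 reads in the class (median 18.3%, 8 members), where Gja1, the gap junction protein connexin 43, had 0 and 27 Genomic reads beside 24 and 0 single-exon ISM reads. Splicing regulators had 16.9% and 16.0% (median 13.1%, 15 members), led by Hnrnpa2b1 with 123 and 125 Genomic reads of 601 and 668. Heart transcription factors had 63 of 484 and 88 of 566 reads in the class (median 9.48%, 8 members), Mef2d leading with 17 and 14. Calcium handling genes had 49.4% and 3.51% with a median of 16.4% over 15 members, Pln holding 8696 and 0 of their 9387 and 687 Genomic reads. Atp2a2, the calcium pump SERCA2, had 159 Genomic reads in each library, 5.10% and 5.42% of its reads.

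Lists of contraction, metabolism and translation had smaller shares. Their counts of called members stand beside 14.5% called over all genes for Genomic reads and 2.03% with single-exon ISM reads added. Sarcomere genes had 1.28% and 1.64% (median 2.95%, 22 members), and 7 of 14 tested members differed between the libraries, 3 higher in replicate 1 and 4 in replicate 2, and 1 of 22 with ISM reads. Respiratory chain genes had 0.502% and 0.591% (median 0%, 19 members), with none of 4 tested members called (2 of 19 with ISM reads), and Sdha, the flavoprotein of complex II, leading with 124 and 169 reads. Mitochondrial carriers and channels had 1.03% and 1.03% (median 1.52%, 11 members, none of 5 called, 1 of 9 with ISM reads). Fatty acid oxidation genes had 1.45% and 2.41% (median 0.689%, 18 members, 4 of 9 called, 1 of 16 with ISM reads), and glycolysis and citric acid cycle genes 1.63% and 1.73% (median 0.359%, 19 members, 3 of 9 called, 1 of 18 with ISM reads). Cytosolic ribosomal proteins and elongation factors had 1.03% and 1.87% (median 0.0335%, 16 members, 3 of 4 called, 0 of 5 with ISM reads). Of 398 genes with 200 or more reads in each library, 158 had 0 Genomic reads in both, the most abundant of them Slc25a4, Hba-a1, Ndufa4, Tnnc1 and Cox6a2. Slc25a4, the adenine nucleotide carrier, nonetheless had 9162 and 10554 single-exon ISM reads.

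Genes in which intron retention is known from mammalian cells had 4.70% and 1.69% (median 5.50%, 12 members). That list was drawn up from general knowledge with earlier results of these data known. Ddx5 was the called one of 2 tested (1 of 4 with ISM reads), and held 57 and 4 of the 82 and 29 Genomic reads. Its model of 56 reads in replicate 1 lay in the last exon with 0 intronic bases, so neither that call nor the share measures reads over introns. Nuclear long non-coding RNAs had 27.0% and 18.8% (4 members with a share, median 0%). Among them Mhrt, antisense to Myh7, had 38 and 36 Genomic reads over a Myh7 exon, which cannot be told apart from reads of Myh7, and Xist had 4 and 7, every read of that gene.

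Markers of other cell types ranged from no Genomic reads to shares above the median of all genes. Endothelial genes had 40 of 800 and 55 of 1267 reads in the class (median 4.17%, 13 members), and mural genes 5.97% and 7.04% (median 9.38%, 5 members). Macrophage genes had 4.02% and 4.79% (median 0.535%, 6 members), atrial genes 4.02% and 3.12% (median 0.453%, 8 members) and fibroblast genes 0.119% and 0.143% (median 0%, 6 members). Erythroid genes had 0 of 18886 reads in replicate 1, which at the floor of 3 reads allows a share of up to 0.0159%. In replicate 2 they had 99 of 7939, of which Hbb-bs held 87, and Hbb-bs had 188 single-exon ISM reads in replicate 1. Adipocyte genes had 0 of 386, which allows up to 0.777% at the same floor, and 24 of 1023. The libraries also differed in genes of these cell types, as Hba-a1 had 10349 and 4361 reads in all, the atrial peptide gene Nppa 583 and 1404, the fat gene Cfd 22 and 312 and the airway gene Bpifa1 0 and 294. Their part in the differences between Genomic counts was not tested. The heart muscle markers Myh6, with 9032 and 8688 reads, and Tnni3, with 687 and 649, were abundant in both.

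The Genomic share was larger in genes with long last exons. For this comparison 4501 protein-coding genes that reached 10 reads in both libraries were put into 4 groups of nearly equal size by their longest annotated last exon. The group with the shortest (31 to 675 bases) had a median share of 0%, the next groups 3.45% and 6.38%, and the group with the longest (2396 to 24280 bases) 10.9%. Genes with at least 50% of their reads in the class made up 2.76%, 4.80%, 7.64% and 15.5% of the 4 groups, short to long. Spearman's rho over these genes was 0.418, given as a description, since the points share 2 libraries.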

How the data were processed

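Long-read RNA sequencing of 2 heart libraries was taken as deposited: per the file headers each table holds whole-number read counts per TALON transcript model with its class, and the models carry mm10 coordinates with GENCODE M21, per the labels. Aligner, versions and filters were not stated. Annotated genes held 600470 and 630598 reads (spike-ins left out), so 1 read was 1.70 and 1.55 CPM in replicate 1 and 2. Counts per gene were scaled by TMM (edgeR 4.0.16, R 4.3.3; factors 0.977 and 1.02) and set against each other by exact two-sided binomial tests; shares by Fisher's exact test (SciPy 1.17.1), with Benjamini-Hochberg adjustment. Both were tested on simulated counts that held counting error only, without further spread between libraries and without changes of class. Intervals are exact 95% (Clopper-Pearson) and, like floors of 3 reads, cover counting error only. DESeq2 1.42.0 gave alternative size factors.

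Named genes were the 25 with the most Genomic reads, the 10 called genes with the largest ratio each way (at least 50 Genomic reads), the 10 highest and 5 lowest shares (at least 200 reads in each library), the 10 largest share differences and up to 3 leading members of each of 20 lists. Members and lists were chosen with earlier results of these data known. The sums with single-exon ISM reads, the settings without Pln and the A content were added after seeing the data. Models over introns or past genes were described without their sequence, as no genome was used here.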

Additional observations from a re-analysis of the deposited data

Results flagged for a closer look

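Outside annotated genes, which all comparisons above use, Genomic models held 268 reads in replicate 1, at 106 loci, and 276 reads in replicate 2, at 118 loci. They were singled out because these reads enter no comparison and lie above the limit that a count of 0 allows (3 reads). In each library 26 loci overlapped one of the other library, and 83 loci in replicate 1 and 86 in replicate 2 lay opposite an annotated gene. The locus with the most reads was on the minus strand of chromosome 8 in both, with 28 reads over chr8:77961385-77973284 in replicate 1 and 33 reads over chr8:77962510-77973284 in replicate 2 (mm10).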

How the results depend on the processing

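No paired analysis was possible because the 2 libraries form 1 group. Beside 211 genes called on Genomic reads, 54 of 291 were called at a minimum of 50 reads (53 of them among the 211), 16 of 833 from models found in both libraries (14 among the 211) and 41 with single-exon ISM reads (27); the other settings gave 168 to 233. The share was called in 7 genes with ISM reads. With ISM reads the direction turned, at these adjusted p of the exact binomial test, in AI837181 (0.669), Csrp3 (0.605), Fabp3 (0.966), Hbb-bs (1.16e-09), Hbb-bt (0.0421), Immt (0.518), Ivns1abp (0.000242), Rcan2 (0.753), Rpl4 (0.986), and Cavin2, Cdc34, Lpl, Tmem160 and Tuba4a (1 each). With sizes from Genomic reads only, Mb turned (0.139).

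With each model counted once, mean shares were: exons 71.6% (87.1% as reported), introns 21.3% (7.49%), exon and intron 3.88% (2.76%), past the gene 3.28% (2.61%), 3′ ends at known ends 58.4% (78.4%). Without the 10 leading genes they were 82.6%, 10.1%, 3.71%, 3.53% and 70.9%, and the Genomic share of all reads was 6.47% (8.44%). Without Pln, exons held 86.0%, introns 8.15% and reads past the gene 2.84%. Against known transcripts with reads only, introns held 3.05%, reads past the gene 6.29% and known ends 76.2%; genes with no such transcript could not be placed. With no tolerance at exon edges, introns held 6.44% and exon and intron 3.85%. Single libraries ranged from 86.5% to 87.8% for exons, 7.20% to 7.77% for introns, 2.48% to 3.05% for exon and intron, 2.50% to 2.72% past the gene, 77.0% to 79.8% for known ends and 7.92% to 8.97% for the Genomic share. The cause was not tested. The planned A content of genomic sequence was not run; after ends inside last exons it was 37.8% over 10 bases and 31.3% over 30 bases of transcript sequence (33.1% over 20). Depth limits single genes: with 10 reads over both libraries, only large ratios can pass.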
